A study of Homo sapiens with 12 samples.

Results

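The cytokine signalling genes described here were 10 genes of the pathway that runs from cytokine receptors through JAK kinases to STAT transcription factors, out of 57992 gene IDs in the deposited count table. They were taken by symbol and were all found: the JAK kinases JAK2 and JAK3, the transcription factors STAT3, STAT4 and STAT5A, the kinase gene PIM1, and the inhibitors SOCS1, SOCS2, SOCS3 and CISH. All 10 passed the filter on low counts that left 16022 genes for testing. RNA sequencing had been done on 12 libraries of induced microglia-like cells (iMGLs), macrophage-like cells of the brain's immune lineage made by differentiating the human embryonic stem cell line H1. The cells were wild type (WT) or labelled as knockout (KO) for MEF2C, which encodes a transcription factor expressed in microglia.

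There were 5 groups. WT and KO each had 3 libraries of cells given vehicle, which the sample labels call control. WT LPS and KO LPS each had 2 libraries of cells given lipopolysaccharide (LPS), the bacterial product sensed by TLR4. KO LPS BMS had 2 libraries of KO cells given both LPS and BMS265246, a compound whose target the series title names as the cell cycle kinase CDK2. WT cells were not given the compound, and the compound was not given without LPS, so its difference from KO LPS concerns LPS-treated KO cells. The sources used here do not give the concentrations, the treatment times, the number of edited clones or the kind of edit. The sample titles call the replicates of a group biological replicates.

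As background, binding of a cytokine to its receptor activates the JAK kinases held on the receptor tails, and these phosphorylate STAT proteins, which then move to the nucleus and switch on genes. JAK2 serves receptors such as those for GM-CSF and interferon-gamma, and JAK3 serves only receptors that contain the common gamma chain IL2RG. STAT3 follows receptors for IL-6 and IL-10, STAT4 follows receptors for IL-12, IL-23 and type I interferon, and STAT5A follows receptors for GM-CSF and common gamma chain cytokines. Among the genes STATs switch on are the SOCS genes and CISH, whose proteins bind receptors or JAKs and shut the signal down, and PIM1, which encodes a serine/threonine kinase that favours cell survival. LPS itself signals through NF-kB and makes macrophages secrete cytokines that act back on the same cells, so JAK-STAT genes are commonly read after LPS in macrophages and microglia.

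Promoters were searched because CISH and the SOCS genes are known as STAT targets. The sequences were taken from RefSeq (GRCh38.p14) as windows from 250 bases before to 50 bases after each annotated start. Windows were found for 9 of the 10 genes, SOCS2 being the exception. A STAT-type motif (TTCNNNGAA, N being any base), an NF-kB-type motif and an interferon response element motif were searched on both strands. The NF-kB-type motif was GGG, then NNN, then TTCC. The interferon response element motif was GAAA, then NN, then GAAA. The CISH window held 4 STAT-type matches, beginning 241, 230, 129 and 112 bases before the start. Of 35116 promoter windows of this length, 7.66% held at least 1 such match and 7 windows (0.0199%) held at least 4. The upstream stretch of CISH, chr3:50611865-50612024 on the minus strand, is printed 5′ to 3′ to show how the 4 matches fall into an outer and an inner pair, with the matches in capitals.
CISH: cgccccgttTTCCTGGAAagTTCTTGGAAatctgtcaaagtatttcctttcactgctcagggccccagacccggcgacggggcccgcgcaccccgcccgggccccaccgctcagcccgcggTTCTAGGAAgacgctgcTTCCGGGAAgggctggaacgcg

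The SOCS1 window held 1 interferon response element match, beginning 113 bases before the start, a motif that 3.57% of all windows held. The JAK3 window held 1 NF-kB-type match, beginning 30 bases before the start annotated for that window, a motif that 6.52% of all windows held. This match lies inside JAK3 as placed below (chr19:17824780-17848071, minus strand). SOCS3 had 1 NF-kB-type match in the second of its windows (chr17:78359618-78359917), beginning 5 bases before the start annotated for that window. This window lies inside SOCS3 as placed below (chr17:78356778-78360077, minus strand), and the first (chr17:78360876-78361175) lies farther upstream. The bases directly before the first base of SOCS3 in that placement were in neither window and were not searched. The interferon response element and NF-kB-type letters did not occur in the windows of the other members, which says nothing of sites elsewhere. The stretches that hold the SOCS1 match (chr16:11256275-11256354, minus strand) and the JAK3 match (chr19:17847983-17848072, minus strand) follow, with the matches in capitals. A match is a run of letters, and no binding was measured.
SOCS1: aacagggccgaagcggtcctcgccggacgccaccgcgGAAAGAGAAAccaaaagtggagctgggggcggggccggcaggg
JAK3: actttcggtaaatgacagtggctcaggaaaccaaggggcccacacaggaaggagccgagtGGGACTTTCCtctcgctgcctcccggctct

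Total counts ran from 13888283 to 17639136 per library. Levels are normalised read counts per library size after TMM scaling (CPM), and a count of 0 would have allowed up to 0.154 to 0.236 CPM, a bound on counting error only. Every member lay well above it, the lowest library count of any member being 141 reads, for SOCS1. Gene positions are those of GENCODE 29 on GRCh38. Changes are log2 fold changes ± SE, and called means an adjusted p (Benjamini-Hochberg, over all 16022 genes) under 0.05 in edgeR's quasi-likelihood test. MEF2C, the targeted gene, was at 184 ± 7.86 CPM (SD, n = 3) in WT and 133 ± 4.01 CPM (SD, n = 3) in KO, so the KO libraries still held MEF2C reads. It was at 50.6 CPM in WT LPS and 46.4 CPM in KO LPS, a difference that was not called (-0.13 ± 0.07, adjusted p = 0.187). Of 12 microglia and macrophage markers, 11 exceeded 1 CPM in some group, and their summed level was 6533 to 7910 CPM, led by CSF1R. CD68 did not exceed 1 CPM, and 81.7% of its exon bases are shared with another annotated gene on the same strand. Granulocyte and mast cell markers summed to 588 to 819 CPM, led by CLC, while B cell markers summed to at most 1.83 CPM, with MS4A1 at 0. In such bulk RNA, fewer cells of a type and less RNA per cell cannot be told apart. The 2 KO LPS libraries differed more from each other than the replicates of any other group (chi-square per degree of freedom 12.2, against 2.1 to 7.65), and 8 of the 10 members were higher in KO LPS replicate 2.

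**Figure D1:**
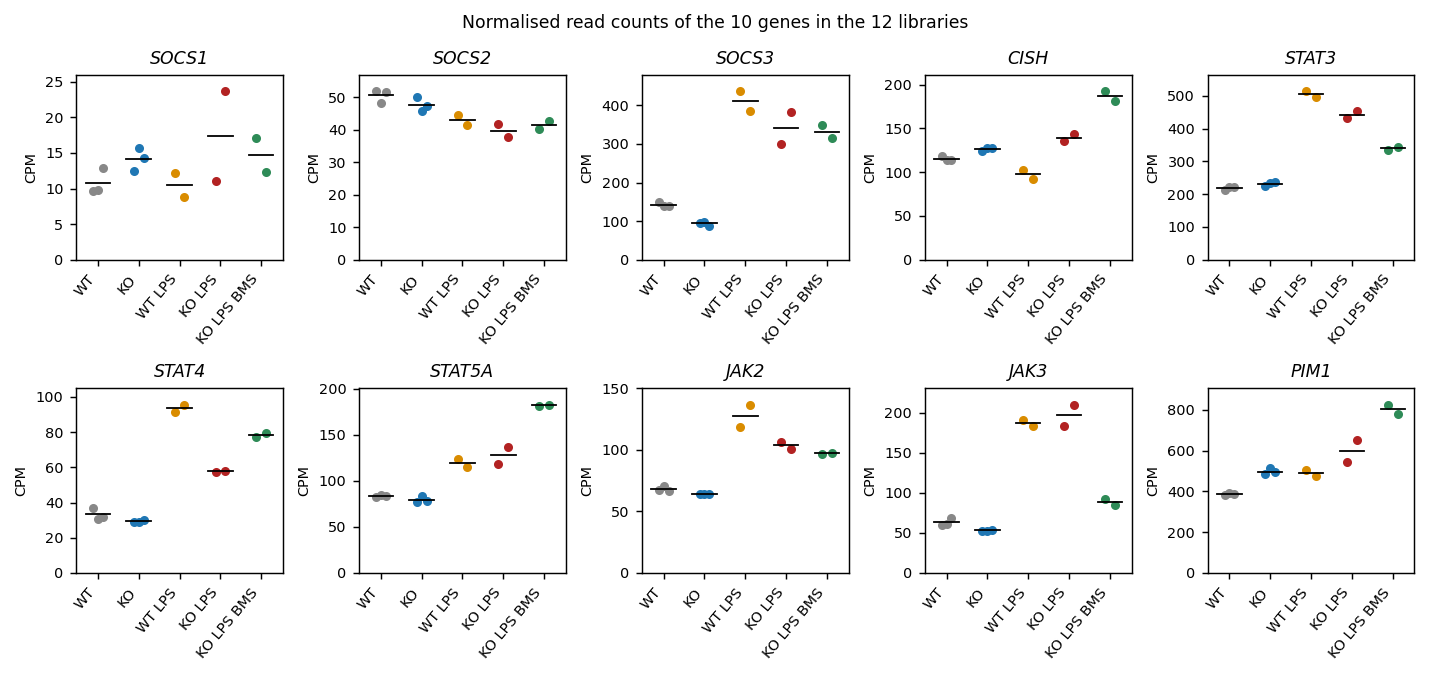
Normalised read counts (CPM, linear axes from 0) of the 10 genes by group; each point is 1 library and each bar is the group mean. JAK3 sits at 183 to 210 CPM in the 4 libraries with LPS alone and at 84.3 to 91.7 CPM with the compound, while CISH, STAT5A and PIM1 are highest with the compound.

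Levels can be set side by side between genes only per length, here as CPM per kb of annotated exon. PIM1 was the most abundant of the 10 transcripts in all 5 groups, at 130 CPM per kb in WT, 167 in KO, 165 in WT LPS, 201 in KO LPS and 269 in KO LPS BMS. SOCS3 came next, at 51.8 CPM per kb in WT, 34.4 in KO, 150 in WT LPS, 125 in KO LPS and 121 in KO LPS BMS. STAT3 followed, at 24.7 CPM per kb in WT and 57.3 in WT LPS. Divided by the longest transcript in place of all exons, STAT3 lay above SOCS3 in KO (45.8 against 34.4 CPM per kb), and the first 3 places in the other groups held the same order. SOCS1, at 5.84 to 9.66 CPM per kb, and SOCS2, at 5.86 to 7.46, stood in the lower part of the order, although SOCS2 came to 10.6 to 13.5 by its longest transcript. In WT the neighbours SOCS2, STAT4 and SOCS1 overlapped in range, as did SOCS2 and SOCS1 in WT LPS and STAT4, SOCS1 and SOCS2 in KO LPS.

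KO cells were compared with WT cells without LPS to ask what the MEF2C knockout changed at rest. SOCS3 and JAK3 fell in KO and PIM1 rose. The change of PIM1, 1.28-fold, and that of SOCS3, 1.51-fold lower, were the 2 with the lowest adjusted p among the members. The count of 1 member higher, 2 lower and 7 not called stands beside 21.6% called over all 16022 genes (10.2% higher and 11.4% lower). The WT and KO libraries did not overlap for 7 of the 10 members, a state found for 40.4% of all genes. The members' median log2 fold change was -0.08, against -0.02 for all genes tested.

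SOCS3 (ENSG00000184557, chr17:78356778-78360077, minus strand), the inhibitor that binds the IL-6 receptor subunit gp130, measured 149, 138 and 138 CPM in the WT libraries and 95.4, 98.7 and 88.0 CPM in the KO libraries. All KO libraries lay below all WT libraries, and the log2 fold change was -0.59 ± 0.09 (adjusted p = 0.00018). JAK3 (ENSG00000105639, chr19:17824780-17848071, minus strand) measured 59.9, 61.1 and 68.1 CPM in WT and 52.6, 52.8 and 53.7 CPM in KO. Here too the groups did not overlap, the change being -0.25 ± 0.06 (adjusted p = 0.0071). Without WT replicate 3, the highest WT library, the JAK3 difference was -0.19 and no longer called (adjusted p = 0.0697). PIM1 (ENSG00000137193, chr6:37170203-37175426, plus strand) went the other way, from 381, 392 and 389 CPM in WT to 483, 514 and 493 CPM in KO. Every KO library exceeded every WT library, with a log2 fold change of 0.36 ± 0.05 (adjusted p = 3.64e-05).

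The other members did not pass the test. CISH (ENSG00000114737, chr3:50606490-50611831, minus strand) lay at 115 ± 2.57 CPM (SD, n = 3) in WT and 126 ± 2.35 CPM (SD, n = 3) in KO, a difference of 0.14 ± 0.05 (adjusted p = 0.0727), and STAT4 (ENSG00000138378, chr2:191029576-191151596, minus strand) at 33.3 ± 3.21 and 29.3 ± 0.818 CPM (SD, n = 3), a difference of -0.18 ± 0.07 (adjusted p = 0.0717). Both adjusted p values sat close to the threshold. The libraries of these 2 genes did not overlap between genotypes, and neither did those of STAT3 (adjusted p = 0.21) and JAK2 (adjusted p = 0.286). In a fit of the WT and KO libraries alone, 6 members were called, the additional ones being CISH (0.16), SOCS1 (0.42) and STAT3 (0.11). The 6 alternative settings that kept all libraries of the 2 groups, this fit among them, called 2810 to 4426 of all genes, against 3463 in the main fit. Without WT replicate 2 STAT4 was called (-0.23, adjusted p = 0.0396). STAT5A, JAK2 and SOCS2 differed by -0.10 to -0.07, STAT3 by 0.08 and SOCS1 by 0.40 ± 0.29, all with intervals that included 0. Granulocyte and mast cell markers summed to 588 to 659 CPM in WT and 710 to 750 CPM in KO, and dendritic cell markers to 152 to 168 CPM in WT and 47.3 to 50.4 CPM in KO. Their part in these differences was not tested.

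Receptor genes upstream of the members were mostly not called or lower in KO. Of 29 tested cytokine receptor subunit genes, 12 fell, 4 rose and 13 were not called. IL7R, the IL-7 receptor chain that pairs with the common gamma chain, fell from 788 to 275 CPM (-1.52 ± 0.05, adjusted p = 1.03e-15). The common gamma chain gene IL2RG itself, whose product JAK3 binds, fell from 141 to 75.1 CPM (-0.91 ± 0.06, adjusted p = 2.16e-10). CSF2RA, the ligand-binding chain of the GM-CSF receptor, fell from 197 to 93.7 CPM (-1.07 ± 0.05, adjusted p = 8.16e-13). Of 14 tested ligand genes, 3 rose, 1 fell and 10 were not called, and IL6 was at 1.17 CPM in WT and 2.80 CPM in KO. Among the remaining 10 JAK, STAT and SOCS genes, 2 rose, among them STAT2 by 0.26 ± 0.05, and 3 fell, JAK1 by -0.24 ± 0.05. Only 3 of these 10 were called in DESeq2, without WT replicate 2 or without KO replicate 2.

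Genes known to be linked to STAT3 or STAT5 in other cells were read from 2 lists. Of 18 tested genes on the STAT3 list, 3 rose, 3 fell and 12 were not called, with a median of -0.04, and 11 were called when WT and KO were fitted alone. Of 14 tested genes on the STAT5 list, 9 rose, 2 fell and 3 were not called, with a median of 0.50. The 3 with the lowest adjusted p were the cyclin gene CCND1 (26.3 to 78.3 CPM, 1.57 ± 0.07), the cell cycle inhibitor gene CDKN1A (275 to 455 CPM, 0.73 ± 0.06) and the survival gene BCL2L1 (49.4 to 71.9 CPM, 0.54 ± 0.06). Such genes have other regulators, and some stand in both lists, among them MYC and BCL6. STAT5A itself was at 83.3 ± 0.846 CPM in WT and 79.2 ± 3.60 CPM in KO (SD, n = 3).

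**Figure D2:**
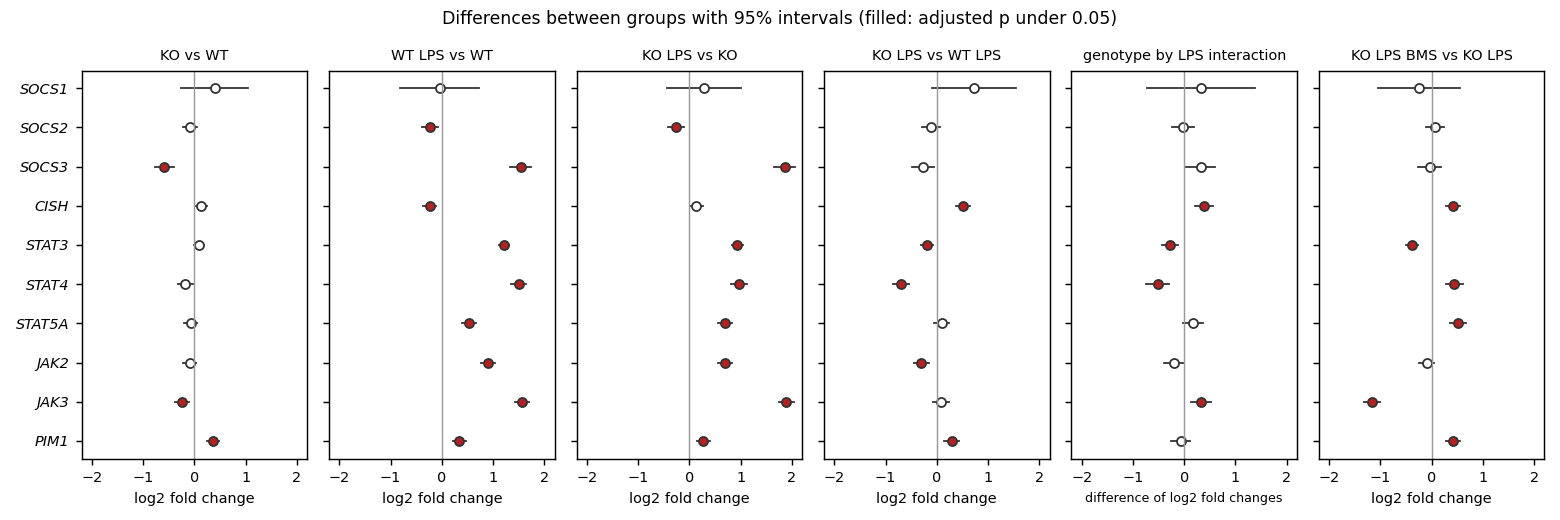
Differences between groups for each of the 10 genes on the log2 scale, with 95% intervals; filled points had an adjusted p under 0.05. LPS raised SOCS3, STAT3, STAT4, STAT5A, JAK2, JAK3 and PIM1 in both genotypes, and the compound moved JAK3 and STAT3 down and CISH, STAT4, STAT5A and PIM1 up.

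LPS was compared with vehicle within each genotype. In WT, 7 members rose (JAK2, JAK3, STAT3, STAT4, STAT5A, SOCS3 and PIM1), CISH and SOCS2 fell, and SOCS1 was not called. In KO, the 7 genes that rose were the ones that rose in WT, SOCS2 fell, and CISH and SOCS1 were not called. Libraries with and without LPS did not overlap for 9 of 10 members in either genotype, against 72.3% of all genes in WT and 62% in KO. Over all genes, LPS called 59.7% in WT (28.9% higher and 30.8% lower) and 44.8% in KO (24.5% higher and 20.3% lower). The members' median was 0.71 in WT and 0.69 in KO, against -0.07 and -0.00 for all genes tested. Scaling by library size alone put 26.7% in place of 48.4% of the calls in the higher direction in WT, and 25.5% in place of 54.7% in KO, with medians over all genes of -0.36 and -0.26. PIM1 was the member whose call ended under that scaling (0.05 in WT, adjusted p = 0.458, and 0.02 in KO, adjusted p = 0.844).

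Among the 3 kinase genes of the 10, JAK3 rose most with LPS in both genotypes. It measured 191 and 183 CPM in WT LPS against 59.9 to 68.1 CPM in WT, a log2 fold change of 1.57 ± 0.07 (2.96-fold, adjusted p = 8.05e-15). With LPS it measured 184 and 210 CPM in KO, against 52.6 to 53.7 CPM without (1.89 ± 0.07, 3.71-fold, adjusted p = 5.09e-16). The groups with and without LPS were far apart in both genotypes, and the 2 LPS groups overlapped each other. JAK2 (ENSG00000096968, chr9:4984390-5128183, plus strand) measured 119 and 137 CPM in WT LPS against 66.5 to 70.8 CPM in WT (0.90 ± 0.06, adjusted p = 4.39e-11), and 107 and 101 CPM in KO LPS against 63.9 to 64.1 CPM in KO (0.70 ± 0.06, adjusted p = 7.49e-09). Its LPS libraries also lay above all libraries without LPS.

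The 3 STAT members rose in both genotypes. STAT3 (ENSG00000168610, chr17:42313324-42388568, minus strand) and STAT5A (ENSG00000126561, chr17:42287547-42311943, plus strand) are neighbours whose 3′ ends face each other. STAT3 measured 213, 221 and 220 CPM in WT and 513 and 497 CPM in WT LPS (1.21 ± 0.05, adjusted p = 2.81e-15), and 223, 233 and 237 CPM in KO and 433 and 452 CPM in KO LPS (0.94 ± 0.05, adjusted p = 4.85e-13). STAT4, the IL-12 pathway STAT, measured 36.9, 30.9 and 32.0 CPM in WT and 91.7 and 95.6 CPM in WT LPS (1.49 ± 0.07, adjusted p = 4.35e-14). In KO it went from 29, 28.7 and 30.3 CPM to 57.4 and 57.9 CPM (0.97 ± 0.08, adjusted p = 3.37e-10). For both genes the WT LPS libraries were the highest and the KO LPS libraries came between those and the libraries without LPS. STAT5A measured 82.4, 84.1 and 83.5 CPM in WT and 124 and 116 CPM in WT LPS (0.52 ± 0.07, adjusted p = 4.51e-07). In KO it measured 76.7, 83.3 and 77.6 CPM, and 118 and 137 CPM with LPS (0.69 ± 0.07, adjusted p = 1.11e-08). Its 2 LPS groups overlapped. STAT5A has a near-identical neighbour, STAT5B, and the sources used here do not say how reads shared by the 2 were counted.

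Among the 4 inhibitors, SOCS3 alone was called higher with LPS. It measured 436 and 385 CPM in WT LPS, 2.90-fold above WT (1.53 ± 0.09, adjusted p = 3.59e-09), and 300 and 382 CPM in KO LPS, 3.63-fold above KO (1.86 ± 0.09, adjusted p = 9.07e-10). All 4 libraries with LPS exceeded all 6 without. CISH, the inhibitor tied to STAT5, went the other way in WT, from 118, 114 and 114 CPM to 102 and 92.7 CPM (-0.24 ± 0.06, adjusted p = 0.00165). In KO the CISH libraries were at 124, 128 and 128 CPM without LPS and 135 and 144 CPM with it, so that they did not overlap, and the difference of 0.14 ± 0.06 was not called (adjusted p = 0.0606) and turned to -0.11 under library size scaling. CISH shares 218 exon bases with MAPKAPK3 on the opposite strand, and the sources used here do not state the strand setting of the counts. MAPKAPK3 differed by -0.28 ± 0.06 in WT (adjusted p = 0.00033) and by -0.15 ± 0.06 in KO (adjusted p = 0.0439), and its part in the CISH values was not tested.

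SOCS2 (ENSG00000120833, chr12:93569814-93583487, plus strand), an inhibitor best known from growth hormone signalling, measured 51.8, 48.2 and 51.7 CPM in WT and 44.5 and 41.5 CPM in WT LPS. In KO it measured 50.1, 45.7 and 47.3 CPM, and 41.7 and 37.7 CPM with LPS. The falls were small (-0.24 ± 0.07, adjusted p = 0.00913, in WT and -0.26 ± 0.08, adjusted p = 0.00646, in KO), with no overlap within a genotype. They were lost without WT LPS replicate 2 (-0.19, adjusted p = 0.102) and without KO LPS replicate 2 (-0.19, adjusted p = 0.109), and DESeq2 did not call the WT one (-0.20, adjusted p = 0.056). SOCS1 (ENSG00000185338, chr16:11254405-11256200, minus strand), an inhibitor of the JAKs at interferon receptors, was the member with the widest spread, at 9.67, 9.78 and 12.9 CPM in WT, 12.5, 15.7 and 14.3 CPM in KO, 12.2 and 8.82 CPM in WT LPS, and 11 and 23.7 CPM in KO LPS. Its LPS difference had 95% intervals from -0.82 to 0.73 in WT and from -0.43 to 1.00 in KO. The KO value was 0.70 (adjusted p = 0.00824) without KO LPS replicate 1 and -0.36 without KO LPS replicate 2, so that 1 library decided its direction.

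PIM1 measured 504 and 476 CPM in WT LPS, above the 381 to 392 CPM of WT (0.34 ± 0.06, adjusted p = 5.68e-05). In KO LPS it measured 546 and 652 CPM, above the 483 to 514 CPM of KO (0.27 ± 0.06, adjusted p = 0.0009). The KO rise was no longer called without KO LPS replicate 2 (0.14, adjusted p = 0.0747). The remaining PIM kinase genes, PIM2 and PIM3, rose further. PIM2 went from 24.4 to 131 CPM in WT (2.42 ± 0.08, adjusted p = 3.67e-17) and from 22.5 to 105 CPM in KO (2.22 ± 0.08, adjusted p = 4.34e-16). PIM1 accordingly made up 81.1% ± 0.79 (SD, n = 3) of the summed CPM per kb of the 3 PIM genes in WT and 60.0% ± 2.3 (SD, n = 2) in WT LPS.

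Ligands that act through these JAKs and STATs were among the genes LPS raised. Of 14 tested ligand genes, 10 rose and 1 fell in WT, and 11 rose and none fell in KO. IL6, the cytokine upstream of STAT3 and SOCS3, went from 1.17 to 146 CPM in WT (6.95 ± 0.11, adjusted p = 9.11e-23) and from 2.80 to 252 CPM in KO (6.49 ± 0.10, adjusted p = 4.73e-23). IL10, which also acts through STAT3, went from 8.16 to 64.8 CPM in WT and from 11.4 to 43.6 CPM in KO. Of 29 receptor genes, 15 rose and 7 fell in WT, and 13 rose and 5 fell in KO. IL7R led them in both, at 6579 CPM in WT LPS and 2423 CPM in KO LPS.

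Among the inhibitors outside the SOCS family, 9 of 16 rose and 5 fell in WT, and 8 rose and 3 fell in KO. The phosphatase genes PTPN1, whose product acts on JAK2, and PTPN2, whose product acts on JAK1, JAK3 and STATs, rose by 1.91 ± 0.06 and 2.25 ± 0.08 in WT and by 1.44 ± 0.06 and 1.77 ± 0.08 in KO. On the STAT3 list 12 of 18 genes rose and 3 fell in WT, and 13 rose and 1 fell in KO. IL1RN, which encodes the IL-1 receptor antagonist, went from 103 to 1085 CPM in WT and from 106 to 1063 CPM in KO. On the STAT5 list 10 of 14 genes rose and 1 fell in WT, and 9 rose and 2 fell in KO. The lists overlap, and many of their genes also answer to NF-kB.

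**Figure D3:**
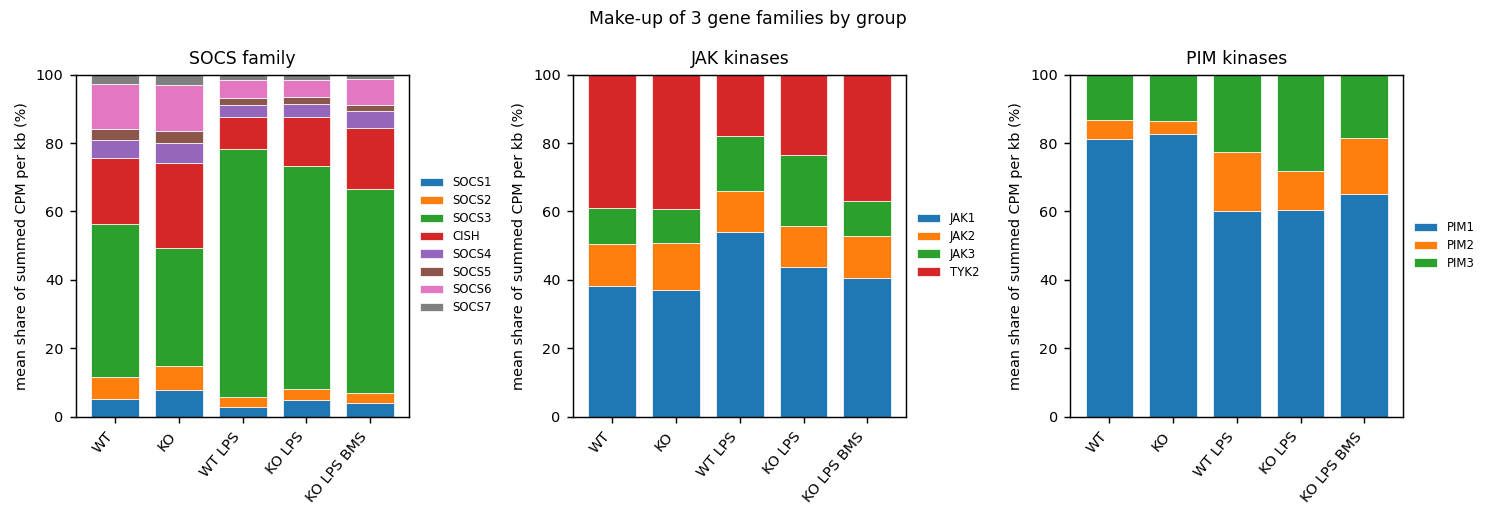
Mean share of each gene in the summed CPM per kb of its family, by group, in percent; stacked bars, with 3 libraries in WT and KO and 2 in the others. SOCS3 takes 44.6% of the SOCS family in WT and 72.4% in WT LPS, JAK3 takes 20.7% of the JAK kinases in KO LPS and 10.2% in KO LPS BMS, and PIM1 takes 81.1% of the PIM kinases in WT and 60.0% in WT LPS.

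The make-up of the families shifted with LPS. SOCS3 went from 44.6% ± 1.0 (SD, n = 3) of the 8 SOCS family transcripts in WT to 72.4% ± 1.5 (SD, n = 2) in WT LPS, while CISH went from 19.4% to 9.19%. JAK3 went from 10.4% ± 0.57 of the 4 JAK transcripts in WT to 16.1% ± 0.71 in WT LPS, and from 10.1% ± 0.16 in KO to 20.7% ± 1.2 in KO LPS. A share can move because another member of its family moved. JAK1, for instance, rose from 213 to 579 CPM in WT with LPS (1.44 ± 0.05, adjusted p = 5.38e-16).

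Whether genotype changed the size of the LPS response was tested directly, as the difference between the 2 LPS responses (KO minus WT, on the log2 scale). The difference was called for 4 members: CISH and JAK3 in the positive direction, STAT4 and STAT3 in the negative one. Over all genes 12% were called (6.42% positive and 5.57% negative). Library size scaling put 65.3% of all calls in the positive direction in place of 53.5%, without turning the direction of these 4. STAT4 had the largest difference, -0.52 ± 0.10 (adjusted p = 0.00211), its LPS response being 2.82-fold in WT and 1.97-fold in KO. STAT3 differed by -0.28 ± 0.07 (adjusted p = 0.0128), from responses of 2.32-fold and 1.91-fold. CISH differed by 0.38 ± 0.08 (adjusted p = 0.00465), its fall in WT having been called and its KO difference of 0.14 not. MAPKAPK3, its opposite-strand neighbour, differed by 0.13 ± 0.08 (adjusted p = 0.341). The JAK3 difference, 0.33 ± 0.10 (adjusted p = 0.0323), was the least firm of the 4: its adjusted p was 0.0582 with DESeq2 size factors in edgeR, 0.0701 in DESeq2, and 0.196 without KO LPS replicate 2.

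For the other 6 members the difference was not called. Their intervals still allowed sizeable differences for SOCS1 (-0.73 to 1.38) and SOCS3 (0.04 to 0.61, adjusted p = 0.137), and smaller ones for SOCS2 (-0.25 to 0.19) and PIM1 (-0.25 to 0.11). SOCS3 was called with no low-count filter (0.30, adjusted p = 0.00846) and without KO LPS replicate 1 (0.46), and JAK2 without WT LPS replicate 1 (-0.30).

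The end points of the response were compared as KO LPS against WT LPS. CISH and PIM1 were higher in KO LPS, STAT3, STAT4 and JAK2 were lower, and the other 5 members were not called, against 30.6% called over all genes (15.6% higher and 15% lower). The libraries did not overlap for 6 members, as for 59.9% of all genes. STAT4 was 1.62-fold lower in KO LPS, 57.4 and 57.9 CPM against 91.7 and 95.6 CPM (-0.70 ± 0.08, adjusted p = 5.9e-07). CISH, at 135 and 144 CPM against 102 and 92.7 CPM, was 1.43-fold higher (0.52 ± 0.07, adjusted p = 3.44e-06), while MAPKAPK3 differed by 0.20 ± 0.06 (adjusted p = 0.0261). In both genes the libraries of the 2 groups were well separated.

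The differences of PIM1 (0.29 ± 0.07, adjusted p = 0.0023), JAK2 (-0.30 ± 0.07, adjusted p = 0.00257) and STAT3 (-0.19 ± 0.05, adjusted p = 0.011) were smaller. With the 4 LPS libraries fitted alone, only CISH and STAT4 were called, and the adjusted p was 0.0712 for PIM1, 0.0543 for JAK2 and 0.112 for STAT3. The PIM1 call also ended without KO LPS replicate 2 (0.15), that of JAK2 without WT LPS replicate 2 (-0.19) and that of STAT3 without WT LPS replicate 1 (-0.17). SOCS3, at 300 and 382 CPM against 436 and 385 CPM, did not pass (-0.27 ± 0.10, adjusted p = 0.061). It was called in DESeq2 (-0.31, adjusted p = 0.00859), with DESeq2 size factors in edgeR (-0.31, adjusted p = 0.0162) and with no low-count filter (-0.30, adjusted p = 5.8e-05). It was also called without KO LPS replicate 2 (-0.45). SOCS1 was called without KO LPS replicate 1 (1.15, adjusted p = 0.000549). Dendritic cell markers summed to 501 to 507 CPM in WT LPS and 94.4 to 98.9 CPM in KO LPS, led by LAMP3 (420 against 67.0 CPM), a gene that mature dendritic cells and activated macrophages can both express. Of the 6 markers, 3 exceeded 1 CPM in each of these groups. Besides LAMP3 these were CCR7 (30.7 CPM in WT LPS against 4.40 in KO LPS) and CD1C (51.8 against 24.6 CPM). FLT3, a defining dendritic cell gene, stayed under 1.13 CPM in all libraries. The part of these cells in the STAT4 difference was not tested.

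Around these members, JAK1 stood lower in KO LPS than in WT LPS (384 against 579 CPM, -0.59 ± 0.06, adjusted p = 1.32e-07). The inhibitors PTPN1 and PTPN2 were lower (by -0.53 ± 0.06 and -0.75 ± 0.09), and USP18, which blocks the type I interferon receptor, was higher (28.1 against 8.07 CPM, 1.80 ± 0.14). IL6 was higher in KO LPS (252 against 146 CPM, 0.79 ± 0.07, adjusted p = 4.48e-08), and IL10 was lower (43.6 against 64.8 CPM, -0.57 ± 0.10, adjusted p = 0.000243). Over the lists, 6 ligand genes were higher and 2 lower of 14, 8 receptor genes were higher and 7 lower of 29, and 3 other inhibitors were higher and 6 lower of 16. Without WT LPS replicate 2, 5 ligand genes were called in place of 8.

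The compound was tested as KO LPS BMS against KO LPS. JAK3 fell most among the members, 2.24-fold, and STAT3 fell 1.30-fold, while CISH, STAT4, STAT5A and PIM1 rose 1.34-fold to 1.43-fold. SOCS1, SOCS2, SOCS3 and JAK2 were not called. This makes 4 higher, 2 lower and 4 not called, beside 47.8% called over all genes (22.3% higher and 25.5% lower), and 7 members had libraries that did not overlap, as had 70.4% of all genes. The members' median was 0.01, against -0.04 for all genes, since rises and falls offset each other.

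JAK3 measured 184 and 210 CPM in KO LPS and 91.7 and 84.3 CPM with the compound. The groups were far apart, with a log2 fold change of -1.16 ± 0.08 (adjusted p = 7.04e-11) that stayed between -1.25 and -1.07 under all alternatives. STAT3 measured 433 and 452 CPM in KO LPS and 336 and 343 CPM with the compound (-0.38 ± 0.06, adjusted p = 6.58e-06). The STAT3 libraries did not overlap, and the difference stayed between -0.47 and -0.35 under all alternatives.

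STAT5A rose from 118 and 137 CPM to 182 and 183 CPM (0.51 ± 0.07, adjusted p = 4.01e-06). CISH, the STAT5-linked inhibitor with the 4 STAT-type matches printed above, rose from 135 and 144 CPM to 192 and 181 CPM (0.42 ± 0.06, adjusted p = 1.43e-05). Its opposite-strand neighbour MAPKAPK3 rose as well, by 0.37 ± 0.06 (adjusted p = 5.67e-05), and its part in the CISH value was not tested. PIM1 rose from 546 and 652 CPM to 825 and 778 CPM (0.42 ± 0.07, adjusted p = 2.3e-05). STAT4 rose from 57.4 and 57.9 CPM to 77.4 and 79.4 CPM (0.44 ± 0.08, adjusted p = 8.52e-05). For each of these 4 genes both libraries with the compound exceeded both libraries without it, and all 18 alternatives kept the rise called. STAT4 is also a gene of T and NK cells, whose 10 markers summed to 26.1 to 33.7 CPM in KO LPS and 26.6 to 27.5 CPM with the compound, 1 and 4 of them above 1 CPM. NKG7, the most abundant of the 10, was at 28.5 CPM in KO LPS and 16.6 CPM with the compound. CD247 was at 0.199 CPM and KLRD1 at 0.167 CPM in KO LPS and at 5.99 CPM and 2.89 CPM with the compound, while CD3E was at 0.129 CPM. Their part in the STAT4 rise, and in the other STAT4 differences, was not tested.

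SOCS3 measured 300 and 382 CPM without the compound and 348 and 316 CPM with it, so that the pairs of libraries overlapped. Its difference was -0.04 ± 0.10, with a 95% interval from -0.26 to 0.18 (adjusted p = 0.778), and it was 0.14 without KO LPS replicate 2. JAK2 measured 107 and 101 CPM against 96.8 and 97.6 CPM, with an interval from -0.24 to 0.05. SOCS2 had an interval from -0.11 to 0.23 and SOCS1 one from -1.05 to 0.56. The SOCS1 difference was -0.66 (adjusted p = 0.0185) without KO LPS replicate 1 and 0.40 without KO LPS replicate 2, so no direction can be given for it.

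Ligand genes were lower with the compound in 6 of 14 cases, higher in 2 and not called in 6. IL6 fell from 252 to 69.6 CPM (-1.86 ± 0.08, adjusted p = 6.02e-14), OSM, a further gp130 cytokine, fell from 42.3 to 15.1 CPM (-1.49 ± 0.12, adjusted p = 1.41e-09), and IL7, a ligand of the JAK3-coupled receptors, fell from 10.2 to 2.51 CPM (-2.02 ± 0.22, adjusted p = 1.33e-07). Receptor genes moved both ways, 12 higher and 7 lower of 29. IL7R fell from 2423 to 856 CPM (-1.50 ± 0.06, adjusted p = 3.3e-14), so that the genes for IL-7, its receptor chain and the kinase JAK3 were all lower. IL6R rose from 113 to 193 CPM (0.77 ± 0.06, adjusted p = 1.76e-09).

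Of the 10 further JAK, STAT and SOCS genes, 4 rose and 5 fell with the compound. STAT6, which transmits IL-4 signals, fell from 299.6 to 161 CPM (-0.90 ± 0.06, adjusted p = 3.8e-11). SOCS6 and SOCS4 rose by 0.70 ± 0.07 and 0.50 ± 0.08. Among the other inhibitors 3 of 16 rose and 7 fell: PTPN2 went from 153 to 50.8 CPM (-1.59 ± 0.09) and PTPN6, which encodes SHP-1, from 446 to 220 CPM (-1.02 ± 0.07), while SH2B3, which encodes the JAK2-binding adaptor LNK, went from 336 to 611 CPM (0.86 ± 0.06).

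The STAT3 list split evenly, 4 genes higher and 4 lower of 18, with a median of -0.03, against -0.04 for all genes, and 13 in place of 8 were called without KO LPS replicate 1. IL1RN fell from 1063 to 516 CPM (-1.04 ± 0.07), while ETV3 and IRF1 rose (1.46 ± 0.07 and 1.00 ± 0.07). On the STAT5 list 8 of 14 genes rose and 5 fell, with a median of 0.38. DUSP5, a phosphatase gene induced by STAT5 in lymphoid cells, rose from 72.6 to 206 CPM (1.50 ± 0.07, adjusted p = 3.71e-13) and BCL2L1 from 93.9 to 209.5 CPM (1.16 ± 0.07, adjusted p = 1.04e-11). OSM, on the same list, fell. PIM2 rose from 105 to 188 CPM (0.84 ± 0.08, adjusted p = 2.26e-08).

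The level reached with LPS and the compound was then set against KO cells given vehicle, a comparison that shares its libraries with the ones above and is therefore given side by side. For JAK3 the difference from KO was 1.89 with LPS and 0.73 ± 0.07 with LPS and the compound (adjusted p = 1.07e-08). For STAT3 these values were 0.94 and 0.55 ± 0.05 (adjusted p = 2.97e-09). Both genes thus remained above the KO level with the compound present. For STAT5A the values were 0.69 and 1.20 ± 0.06, for STAT4 0.97 and 1.42 ± 0.07, for PIM1 0.27 and 0.69 ± 0.06, and for CISH 0.14 and 0.56 ± 0.06. These 4 thus lay farther from the KO level with the compound. SOCS3 stood at 1.86 and 1.82 ± 0.09, and JAK2 at 0.70 and 0.60 ± 0.07.

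In all, 8 members were higher in KO LPS BMS than in KO, SOCS2 was lower (-0.20, adjusted p = 0.023) and SOCS1 was not called, against 62.7% called over all genes (30.3% higher and 32.4% lower). The libraries did not overlap for 9 members, as for 76.2% of all genes. The SOCS2 call was lost in DESeq2 (adjusted p = 0.0907), without KO replicate 1 (-0.17) and without KO LPS BMS replicate 1 (-0.16). Library size scaling put 26.1% of all calls in the higher direction in place of 48.4%.

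Within the families, the JAK3 share of JAK transcripts was 20.7% ± 1.2 in KO LPS and 10.2% ± 0.42 in KO LPS BMS (SD, n = 2), next to 10.1% ± 0.16 in KO (SD, n = 3). Measured per longest transcript the same shares were 19.8%, 9.43% and 9.36%. TYK2 moved opposite, from 39.2% in KO to 23.4% in KO LPS and 36.9% with the compound. SOCS3 remained the main SOCS transcript with the compound, at 59.6% ± 1.1.

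The order of the groups differed between members. STAT3 ran, from low to high, WT, KO, KO LPS BMS, KO LPS and WT LPS, with no overlap between neighbours. STAT4 ran KO, WT, KO LPS, KO LPS BMS and WT LPS, again with no overlap between neighbours. JAK2 ran KO, WT, KO LPS BMS, KO LPS and WT LPS, and CISH ran WT LPS, WT, KO, KO LPS and KO LPS BMS, each with separate neighbours. Over all genes, compared groups did not overlap for 40.4% (KO vs WT) to 76.2% (KO LPS BMS vs KO). KO vs WT was called for none of STAT3, STAT4, JAK2 and CISH. JAK2 was not called in KO LPS BMS vs KO LPS, nor CISH in KO LPS vs KO, and not every neighbouring pair was tested. In SOCS1 every neighbouring pair of groups overlapped. The dendritic cell marker sum ran KO, KO LPS, KO LPS BMS, WT and WT LPS, and stood at 113 to 118 CPM in KO LPS BMS. Like STAT4 it was lowest in KO and highest in WT LPS. WT stood above KO LPS and KO LPS BMS in the marker sum and below both in STAT4. Its part in the STAT4 levels was not tested.

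For each member, the genes of at least 5 CPM whose centred log2 levels over the 12 libraries came closest were found by the root mean square (RMS) difference among 10580 genes. JAK3 was closest to CHST2, a sulfotransferase gene (0.15, against 0.78 for the spread of JAK3 around its own mean), and to the carboxypeptidase gene CPM (0.18). CHST2 stood at 76.4 CPM in WT, 256 CPM in WT LPS, 248 CPM in KO LPS and 120 CPM with the compound. SOCS3 was closest to the receptor gene GPR132 (0.09) and to GRAMD2B (0.10), with a spread of its own of 0.85. STAT4 was closest to SINHCAF (0.09) and LITAF (0.10), and STAT3 to UBE2J1 (0.07) and VAV1 (0.08).

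STAT5A was closest to CRTC2 (0.07) and ZFAND3 (0.08), CISH to NAT9 (0.08) and the lysosomal protease gene CTSA (0.09), and PIM1 to the HSP90 co-chaperone gene CDC37 (0.05) and RASA3 (0.09). JAK2 was closest to NUP98 (0.05), SOCS2 to TM9SF2 (0.05) and SRPRB (0.06), and SOCS1 to PRELID1 (0.14) and SLC16A3 (0.16). None of these partners was itself a member. The measure describes 12 libraries in 5 groups and carries no test.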

How the data were processed

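RNA of H1-derived iMGLs was sequenced as 12 mRNA-seq libraries (NEBNext Ultra kit, per the labels' protocols). The authors deposited 1 table of whole-number read counts per gene. The submitters' processing notes name CASAVA 1.7, Cufflinks and GRCh38, and the sources used here do not state the aligner, counter, strand setting or annotation. Symbols came from a gene name table (56948 IDs) and GENCODE 29 (440 more), exon lengths and overlaps from GENCODE 29.

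filterByExpr left 16022 genes, which edgeR 4.0.16 (R 4.3.3) fitted over all 12 libraries with 1 mean per group, TMM scaling and robust quasi-likelihood dispersion. The 7 comparisons were tested 2-sided with Benjamini-Hochberg adjustment over all 16022 genes, and intervals are 95%. The p-values measure the spread between these libraries, and groups of 2 borrow theirs from the whole fit. Total counts were 13888283 to 17639136, TMM factors 0.872 to 1.12 and the common biological coefficient of variation 0.0635.

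The members and the 7 pathway lists (125 different genes) were chosen with earlier results of these data known. Named list genes were at most the 3 called ones of lowest adjusted p per list and comparison, and the text gives part of them. Some items are not reported here. Alternatives were DESeq2 1.42.0, its size factors in edgeR, library size scaling, no low-count filter, only the groups compared, a replicate block, each library left out, and longest-transcript lengths. The fitting procedure was tested on simulated counts with known changes.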

Additional observations from a re-analysis of the deposited data

Results flagged for a closer look

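The LPS response differed between genotypes in 4 of the 10 genes by the test of the difference itself, in edgeR's quasi-likelihood fit over 16022 genes. Of all genes tested, 12% were called (6.42% positive and 5.57% negative). CISH differed by 0.38 ± 0.08 (KO minus WT on the log2 scale, adjusted p = 0.00465), STAT3 by -0.28 ± 0.07 (adjusted p = 0.0128), STAT4 by -0.52 ± 0.10 (adjusted p = 0.00211) and JAK3 by 0.33 ± 0.10 (adjusted p = 0.0323). The first 3 kept their call under all 18 alternatives, while JAK3 kept it under 8 of 18. No group had the 4 libraries needed to test for a library that stands apart.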

How the results depend on the processing

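Over the 10 genes in 7 comparisons, 396 of the values under 6 other settings kept direction and call, 12 lost the call, 7 gained it and 5 turned. With library size scaling SOCS2 turned to -0.025 in KO LPS BMS vs KO LPS and to 0.0054 in the interaction, SOCS1 to -0.30 in KO LPS BMS vs KO and CISH to -0.11 in KO LPS vs KO. Deviations of same-numbered libraries from their group means correlated at -0.143 to 0.103 in 21 pairs, 1 of them over 0.1, so the numbers were not taken to pair the libraries. Between groups of 2 libraries, whose deviations mirror each other, the values for numbers 1 and 2 were identical, so the 21 pairs were not all separate checks. With the replicate number as a block, SOCS1 turned to 0.042 in WT LPS vs WT, the JAK3 interaction lost its call (0.33, adjusted p = 0.0514), and no other member's call changed. In fits of only the groups compared, 6 members in place of 3 were called in KO vs WT, 2 in place of 5 in KO LPS vs WT LPS, and 2660 genes in place of 4900 in the latter. In KO vs WT, the 6 other settings called 2810 to 4426 of all genes, against 3463. Leaving out 1 library gave 2 to 4 members and 2593 to 3857 genes called in KO vs WT, 4 to 6 members and 3005 to 5549 genes in KO LPS vs WT LPS, and 3 to 5 members and 1162 to 3079 genes in the interaction, against 3, 5 and 4 members with all libraries. Leaving out 1 library also turned uncalled values. SOCS1 ranged from -0.29 to 0.17 in WT LPS vs WT, -0.36 to 0.70 in KO LPS vs KO, -0.32 to 0.75 in the interaction, -0.66 to 0.40 in KO LPS BMS vs KO LPS and -0.20 to 0.27 in KO LPS BMS vs KO. SOCS2 ranged from -0.13 to 0.046 in the interaction and -0.012 to 0.18 in KO LPS BMS vs KO LPS, and SOCS3 from -0.16 to 0.14 in the latter. In KO LPS vs WT LPS, STAT5A ranged from -0.019 to 0.17 and JAK3 from -0.024 to 0.14, and PIM1 ranged from -0.20 to 0.025 in the interaction. For the interaction over all genes, 1162 were called without KO LPS replicate 2, 1212 without WT LPS replicate 2 and 3079 without KO LPS replicate 1, against 1920 with all libraries. The cause was not tested. The low count of SOCS1 (141 to 346 reads) and the 2 libraries per LPS group limit the precision, and whether reads of overlapping opposite-strand genes entered CISH, SOCS2 (277 shared exon bases with SOCS2-AS1) and STAT4 (109 with STAT4-AS1) cannot be told from the table.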
